A study of Homo sapiens with 18 samples.

Results

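ATF4 and unfolded protein response genes are 37 of the 60622 genes in the deposited count tables, chosen by symbol from a fixed list. The list was drawn up with earlier results of these data known. They form an ATF4 arm of 20 genes, from ATF4 itself to the secreted factor STC2, and an ER chaperone arm of 17 genes, from the chaperone HSPA5 to the sensor kinase ERN1. All 37 were found, each on 1 row. The study sequenced RNA from the human line H1299, derived from a non-small cell lung cancer, in 18 libraries that form 6 groups of 3. Doxycycline switches on a transgene of wild-type p53 joined to FKBP12F36V, a mutant binding protein that serves as a chemical handle, and to an HA tag. AceTAG molecules are heterobifunctional: one end binds the tag and the other binds an acetyltransferase. Cells induced to make the fusion, or labelled as H1299 alone and called non-induced here, received DMSO, AceTAGp300CBP-1 or AceTAGPCAFGCN5-4 for 24 h. These are called the p300/CBP compound and the PCAF/GCN5 compound after the enzymes in their names. The labels give no dose, so the compounds were compared only as applied. They also do not say whether the non-induced cells carried the construct or received doxycycline, so induction here means the fusion together with whatever else differed. Nothing says that replicates came from separate cultures, and all p-values measure only the spread between these samples.

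Cells answer misfolded protein in the endoplasmic reticulum (ER), amino acid shortage and other stresses through overlapping programmes. Kinases such as PERK and GCN2 phosphorylate the initiation factor eIF2, general translation slows, and translation of the transcription factor ATF4 rises. ATF4 then drives genes for amino acid uptake and synthesis and for stress signalling, among them DDIT3, which encodes the transcription factor CHOP. In the ER, the sensors ATF6 and IRE1 (encoded by ERN1) act through cleaved ATF6 and spliced XBP1 and raise chaperones, folding enzymes and degradation factors. ATF4 is set largely by translation, ATF6 by cleavage and XBP1 by splicing, so RNA levels of these 3 regulators do not measure their activity.

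Total counts per library ran from 9055888 to 29166322. The shallowest library was the third non-induced DMSO library. Keratin and vimentin transcripts of a carcinoma line (KRT8, KRT18 and VIM) were between 68.6 and 3988.9 CPM in every library, where CPM stands for counts per 1000000 counts of the library. Of 10 markers of blood, endothelial, fibroblast and liver cells, 3 exceeded 1 CPM in any library, the highest level was 4.08 CPM, and the leukocyte gene PTPRC had no count in any. Summed, these 10 markers were lower with the p300/CBP compound, with no overlap: 3.34 to 4.41 CPM against 5.11 to 5.74 CPM with DMSO in non-induced cells, and 3.47 to 4.92 CPM against 5.00 to 6.58 CPM in induced cells. The PCAF/GCN5 libraries had sums of 4.63 to 5.35 CPM in non-induced and 5.11 to 6.90 CPM in induced cells. For the p300/CBP compound against DMSO, edgeR tested 3 of the 10 markers and called 0 in either state, and DESeq2 called 0. The part of these markers in the results was not tested. In bulk RNA, fewer cells of a type and less RNA per cell cannot be told apart. The summed keratins and vimentin were lower in induced cells, with no overlap. They were at 3954 to 4233 CPM before and 2770 to 3173 CPM after induction in DMSO. With the p300/CBP compound they were at 3797 to 4300 CPM and 2767 to 2810 CPM, and with the PCAF/GCN5 compound at 3599 to 4180 CPM and 2856 to 3110 CPM. Of these 3 genes edgeR called VIM as lower on induction in DMSO, all 3 with the p300/CBP compound, and VIM and KRT18 with the PCAF/GCN5 compound. The p300/CBP compound lowered KRT8 and KRT18 in induced and KRT18 in non-induced cells, and the part of this in the results was not tested. The p53 targets used as a check rose on induction in DMSO, CDKN1A from a mean of 89.6 to 352 CPM and MDM2 from 68.5 to 582 CPM. The third induced DMSO library stood apart in these genes: it held the highest level of all 18 libraries for 9 of the 17 ER chaperone arm genes (HSPA5, HSP90B1, XBP1, PDIA4, PDIA6, CALR, SDF2L1, CRELD2 and HYOU1) and for 5 of the 20 ATF4 arm genes. It held the lowest level for 3 ATF4 arm genes and 1 ER chaperone arm gene. The share of all genes at an extreme in this library was not counted. Leaving it out raised the share of all genes that edgeR called on induction in DMSO from 13.8% to 32.5%. Its ER chaperone arm summed to 4501 CPM, against 3985 and 4027 CPM in its partners, and 0.714% of its counts were mitochondrial against 1.32% to 2.45% elsewhere. Counts of calls among the 37 genes that use induced DMSO cells are therefore given with and without that library.

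In the deposited tables, which name no build, DDIT3 lies at chr12:57516588-57521737, TRIB3 at chr20:362835-397559, ATF4 at chr22:39519695-39522685, SLC7A5 at chr16:87830023-87869507, HSPA5 at chr9:125234853-125241343 and DNAJB9 at chr7:108569867-108574850. For 16 of the 37 genes these positions equal GENCODE release 29, an annotation of GRCh38. All 37 genes passed the filter on low counts in every comparison. Compared per kilobase of gene model, the ER chaperones were the most abundant. CALR (calreticulin, a calcium-binding chaperone of glycoproteins) averaged 343 CPM per kilobase over the 18 libraries, HSPA5 (BiP, the main ER Hsp70) 169, HSP90B1 (GRP94, the ER Hsp90) 158 and PDIA6 (a disulfide isomerase) 109. ATF4 came next at 78.9 CPM per kilobase. The lowest was ASNS, asparagine synthetase, a textbook ATF4 target, at 0.259 CPM per kilobase and 0.892 to 1.90 CPM. The genes with the widest span between libraries, as the ratio of the highest to the lowest CPM, were DDIT3 (3.39), TRIB3 (3.11), CHAC1 (2.72) and SDF2L1 (2.65).

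Some promoters of the ER chaperone arm held the letters through which ATF6 and XBP1 are known to act. The search covered RefSeq windows of 300 bases, 250 before to 50 after each start site (GRCh38.p14), on both strands, and 34 of the 37 genes had a window. PSPH, SHMT2 and SLC7A11 had none. The ER stress response element (ERSE) was taken as CCAAT, then 9 bases of any kind, then CCACG. It was found in 6 of the 20 windows of the ER chaperone arm (30%), in 0 of the 30 windows of the ATF4 arm and in 27 of 35116 windows over all genes (0.0769%). These shares describe the listed genes and were not tested. The 6 genes were HSPA5, HSP90B1, CALR, PDIA6, XBP1 and CRELD2, and HSP90B1 held it in 2 places. Their matches are printed because the later results follow these genes as a set. Each is read 5′ to 3′ in the direction of the element, with the element in capitals:
HSPA5, chr9:125241386-125241414, minus strand: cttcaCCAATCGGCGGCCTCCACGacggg
HSP90B1, first match, chr12:103930211-103930239, plus strand: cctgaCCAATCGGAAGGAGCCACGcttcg
HSP90B1, second match, chr12:103930316-103930344, minus strand: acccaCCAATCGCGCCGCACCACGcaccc
CALR, chr19:12938379-12938407, minus strand: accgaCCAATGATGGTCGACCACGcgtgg
PDIA6, chr2:10812848-10812876, minus strand: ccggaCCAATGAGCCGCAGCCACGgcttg
XBP1, chr22:28800598-28800626, minus strand: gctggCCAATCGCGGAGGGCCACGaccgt
CRELD2, chr22:49918549-49918577, minus strand: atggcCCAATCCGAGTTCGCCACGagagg
Both HSP90B1 matches overlap annotated exons of HSP90B1 in GENCODE release 29, and the first also an exon of TTC41P. The other 5 overlap no annotated exon.

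The element bound by ATF4 with a C/EBP partner, TGATGNAA, was found in 5 of the 30 windows of the ATF4 arm (16.7%), in 1 of the 20 windows of the ER chaperone arm (5.0%) and in 1270 of 35116 windows over all genes (3.62%). The ATF4 arm genes were ASNS, CHAC1, CEBPG, SLC1A5 and SLC3A2, the last with its match after the start site, and the ER chaperone arm gene was HERPUD1. The matches shown, with the element in capitals, belong to genes that moved in different directions below:
CHAC1, chr15:40953252-40953279, minus strand: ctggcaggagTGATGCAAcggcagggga
CEBPG, chr19:33374061-33374088, plus strand: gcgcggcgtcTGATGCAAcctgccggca
SLC1A5, chr19:46784894-46784921, minus strand: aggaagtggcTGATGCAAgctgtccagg
Another element, TGACGTGG, to which spliced XBP1 and cleaved ATF6 are known to bind, was found in 256 of 35116 windows (0.729%) and among the 37 genes in HYOU1 alone. A match is a run of letters and does not show binding.

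Induction in DMSO raised the stress effectors TRIB3 and DDIT3 of the ATF4 arm and lowered the amino acid carriers SLC7A5 and SLC1A5, the enzymes PSAT1, SHMT2 and MTHFD2 and the transcription factor CEBPG. By edgeR's quasi-likelihood test with Benjamini-Hochberg adjustment over all genes, called at an adjusted p below 0.05, 2 ATF4 arm genes rose and 6 fell of 20. In the ER chaperone arm 2 rose and 0 fell of 17. Over all genes tested, 13.8% were called, 6.01% as higher and 7.77% as lower. The median log2 fold change was -0.11 in the ATF4 arm, 0.17 in the ER chaperone arm and 0.01 over all genes, and 16 of the 17 ER chaperone arm genes had a value above 0. Without the third induced DMSO library, 12 of the 17 were above 0 and their median was 0.11.

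**Figure D1:**
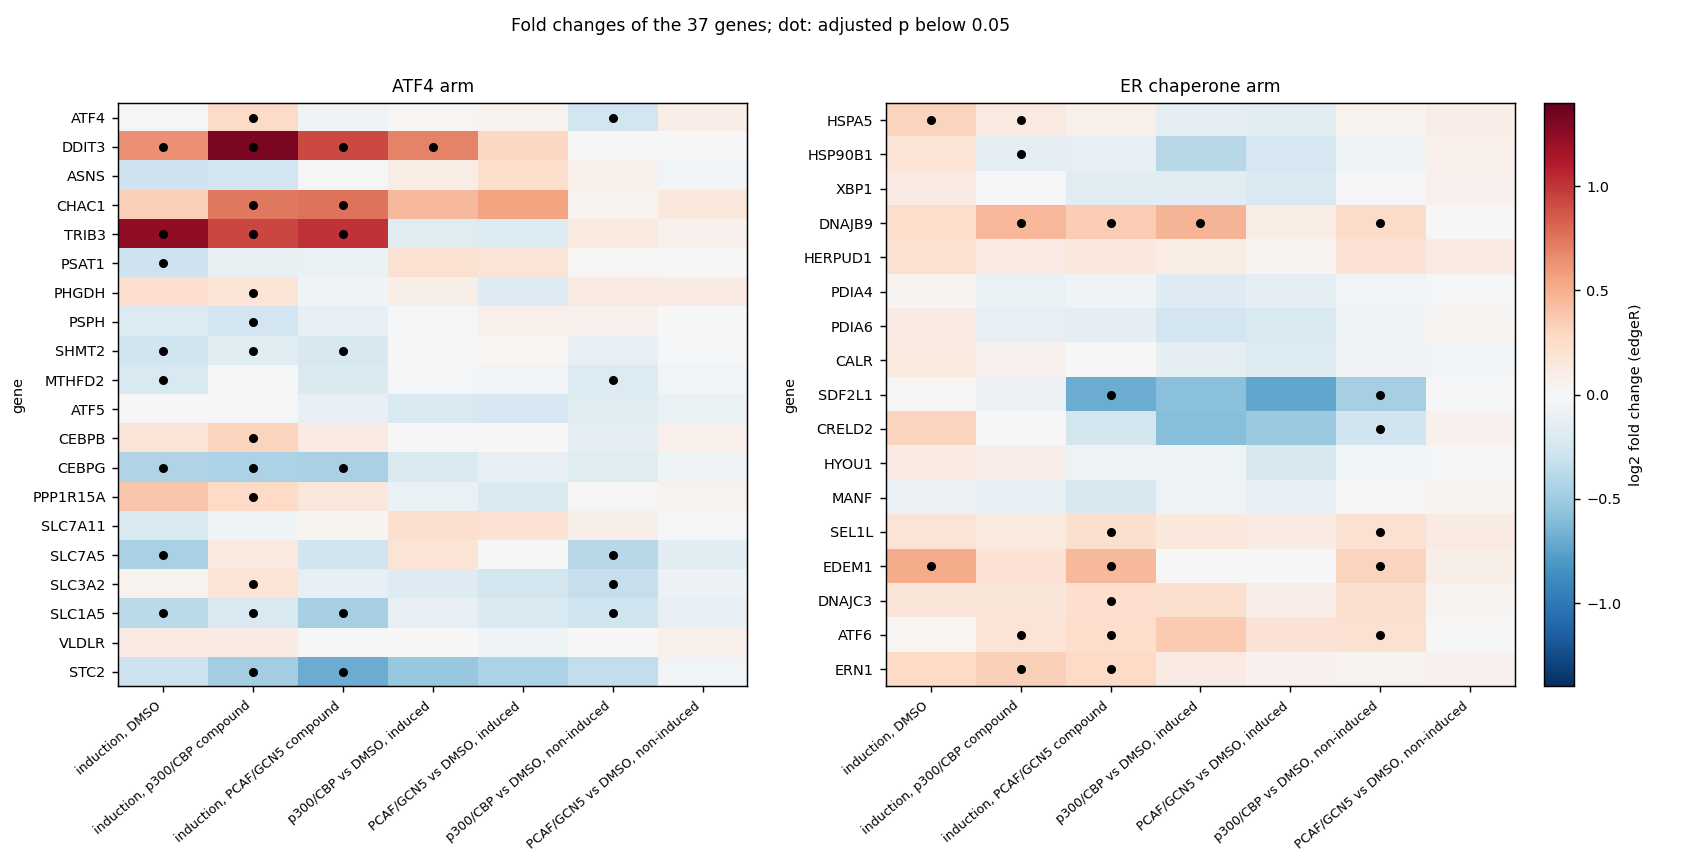
Each cell is the edgeR log2 fold change of 1 gene (rows) in 1 comparison (columns), red for higher and blue for lower in the first-named condition, with a black dot at an adjusted p below 0.05. DDIT3 and TRIB3 carry dots in all 3 induction columns, and the last column, the PCAF/GCN5 compound in non-induced cells, has no dot.

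TRIB3, a pseudokinase that feeds back on ATF4 and CHOP, stood at 15.1, 17.2 and 15.8 CPM in non-induced DMSO libraries and at 33.8, 34.7 and 47.1 CPM in induced ones. The groups did not overlap, and the third induced library was the highest. Here and below, the share of all genes whose groups did not overlap was not counted. The log2 fold change was 1.24 ± 0.15 (SE; edgeR, adjusted p = 0.000745), and 1.05 ± 0.08 without that library. DDIT3, which encodes CHOP, stood at 9.48, 8.78 and 7.73 CPM before and 14.5, 15.5 and 11.7 CPM after induction. Here the third induced library was the lowest of its group and still above every non-induced one, and the log2 fold change was 0.64 ± 0.13 (adjusted p = 0.0131). ATF4 did not pass, with 194, 212 and 185 CPM before and 189.5, 189 and 217 CPM after. CHAC1, a glutathione-degrading enzyme downstream of ATF4 and CHOP, did not pass either, although 3.74, 3.52 and 4.07 CPM in induced libraries all lay above 2.92, 2.89 and 3.09 CPM.

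The 6 genes that fell were 2 amino acid carriers, 3 enzymes and a transcription factor. SLC7A5, the light chain of the leucine transporter LAT1, stood at 352, 353 and 350.3 CPM in non-induced and 259, 279 and 252 CPM in induced libraries. The groups lay far apart relative to their spread, with a log2 fold change of -0.45 ± 0.06 (edgeR, adjusted p = 0.00125). The glutamine carrier SLC1A5 went from 135, 139 and 141 CPM to 109, 111 and 105 CPM (-0.38 ± 0.06, adjusted p = 0.00262). In both carriers every induced library lay below every non-induced one. PSAT1, an enzyme of serine synthesis, stood at 124, 119.5 and 119.9 CPM before and 103, 108 and 91.9 CPM after (-0.29 ± 0.07). SHMT2 stood at 106, 117 and 109.5 CPM before and 98.8, 95.3 and 84.8 CPM after (-0.28 ± 0.07), and MTHFD2 at 202, 209.8 and 201 CPM before and 176, 191 and 173 CPM after (-0.21 ± 0.06). Both belong to mitochondrial folate metabolism, and in neither gene did the groups overlap. CEBPG, a C/EBP partner of ATF4, went from 73.9, 71.7 and 69.2 CPM to 52.0, 53.3 and 58.7 CPM (-0.42 ± 0.08, adjusted p = 0.00721). SLC3A2, the heavy chain that pairs with SLC7A5, did not follow it: it stood at 163, 152 and 149 CPM before and 144, 151 and 195 CPM after (0.05, adjusted p = 0.805). Of 11 other settings, 6 ended the call of SHMT2 (adjusted p up to 0.178), 6 that of MTHFD2 (up to 0.214), 4 that of PSAT1 (up to 0.122), 2 that of CEBPG (up to 0.0537), 2 that of DDIT3 (up to 0.0728) and 0 those of TRIB3, SLC7A5 and SLC1A5. Most of these settings left out 1 library, and leaving out the second non-induced DMSO library ended all 5. Without the third induced DMSO library all 8 genes were called, DDIT3 at 0.72, CEBPG at -0.49, SLC7A5 at -0.43, SLC1A5 at -0.36, PSAT1 at -0.24, SHMT2 at -0.23 and MTHFD2 at -0.20.

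In the ER chaperone arm, HSPA5 stood at 619.8, 575 and 584 CPM in non-induced and 711, 729.7 and 804 CPM in induced DMSO libraries. The groups did not overlap (0.31 ± 0.07, edgeR adjusted p = 0.0242), but the call ended with the replicate block and without any 1 of the non-induced DMSO libraries (adjusted p up to 0.132). EDEM1, which directs misfolded glycoproteins to degradation, went from 15.8, 16.8 and 15.1 CPM to 23.7, 22.8 and 23.7 CPM, a log2 fold change of 0.52 ± 0.09 (adjusted p = 0.00438). Other chaperones were split by the third induced library. HSP90B1 stood at 752, 743 and 695 CPM before and 772, 782 and 982 CPM after induction. CRELD2, a secreted ER stress marker, stood at 25, 26.1 and 24.5 CPM before and 24.6, 23 and 47.6 CPM after, and SDF2L1, a cofactor of HSPA5, at 30.7, 27.2 and 25.2 CPM before and 24.6, 22.9 and 38.8 CPM after. For CRELD2 and SDF2L1 the first and second induced libraries thus lay below every non-induced one or within their range, and the third above all of them. XBP1 was at 38.7, 40.4 and 54.8 CPM in induced libraries, against 42.1, 39.1 and 40.6 CPM.

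Without the third induced library, the same comparison called 23 of the 37 genes: 4 higher and 9 lower in the ATF4 arm, 9 higher and 1 lower in the ER chaperone arm. The ER genes then called as higher were HSPA5 (0.24), EDEM1 (0.50), DNAJB9 (0.30), ERN1 (0.25), HERPUD1 (0.23), DNAJC3 (0.22), ATF6 (0.21), SEL1L (0.18) and CALR (0.11), and SDF2L1 was lower (-0.28). ATF6 was the 1 ER chaperone arm gene lowest of all 18 libraries in the third induced DMSO library, at 65.3 CPM against 101 and 104 CPM. The share of all genes called was also larger in that fit, at 32.5% against 13.8%. In the ATF4 arm SLC3A2 was then called as lower (-0.11, adjusted p = 0.0412) and STC2 too (-0.52).

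**Figure D2:**
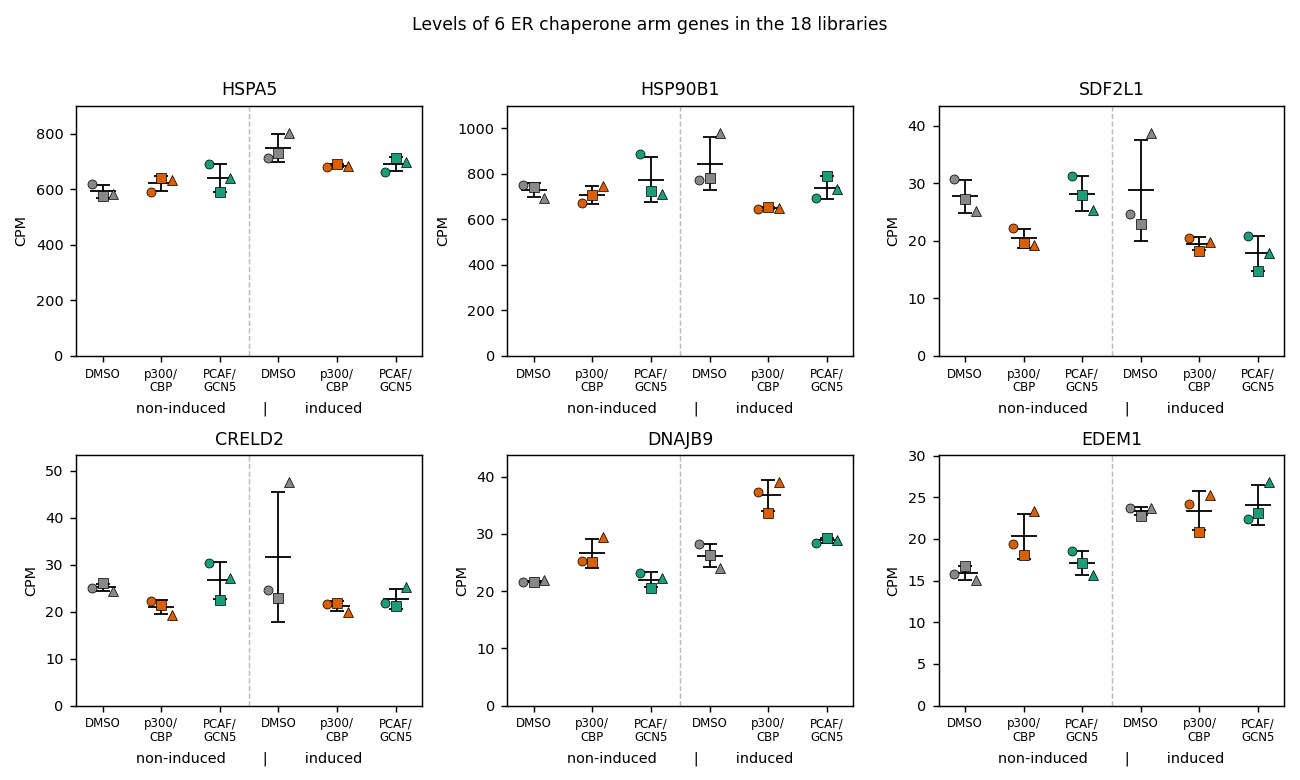
CPM (vertical axes, from 0) of 6 ER chaperone arm genes in the 18 libraries, by group, with circles, squares and triangles for replicates 1, 2 and 3 and bars for the mean and SD of 3. The third induced DMSO library (grey triangle on the right) lies above its partners for HSPA5, HSP90B1, SDF2L1 and CRELD2, and below them for DNAJB9.

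Induction was also measured in cells that received a compound. In p300/CBP compound cells, 12 of the 37 genes rose and 6 fell, where 32.6% of all genes were called, 16.4% as higher and 16.2% as lower. In PCAF/GCN5 compound cells, 9 rose and 5 fell, where 23.9% of all genes were called, 11.4% as higher and 12.5% as lower. The ATF4 arm had 8 risers and 5 fallers with the p300/CBP compound (median 0.04), and 3 and 4 with the PCAF/GCN5 compound (median -0.07). The ER chaperone arm had 4 and 1 (median 0.09), and 6 and 1 (median 0.00). Median changes over all genes were 0.01 and 0.00.

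DDIT3 stood at 8.25, 8.02 and 10.8 CPM in non-induced and 18.7, 25.9 and 22.9 CPM in induced cells given the p300/CBP compound, a log2 fold change of 1.32 ± 0.12 (edgeR, adjusted p = 1.75e-07). With the PCAF/GCN5 compound it stood at 9.74, 9.47 and 7.64 CPM and at 18.9, 17.5 and 15.7 CPM (0.92 ± 0.12, adjusted p = 5.73e-05). No induced library of either set overlapped a non-induced one. TRIB3 rose in both, with the p300/CBP compound from 17, 18.2 and 18.6 CPM to 31.5, 35 and 36.6 CPM (0.93 ± 0.08, adjusted p = 4.26e-08) and with the PCAF/GCN5 compound from 17.3, 16.4 and 16.9 CPM to 34.9, 36.1 and 33.5 CPM (1.01 ± 0.09, adjusted p = 6.42e-07). CHAC1, at low counts, went from 2.95, 3.24 and 3.06 CPM to 4.86, 5.69 and 5.00 CPM with the p300/CBP compound (0.74 ± 0.16, adjusted p = 0.00134). With the PCAF/GCN5 compound it went from 2.82, 4.51 and 2.51 CPM to 5.55, 6.81 and 4.89 CPM (0.76 ± 0.22, adjusted p = 0.0184). In each case the lowest induced library was above the highest non-induced one, although 3 of 11 other settings ended the call with the PCAF/GCN5 compound (adjusted p up to 0.0807). These 3 genes are stress effectors that act at or below the level of CHOP.

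Transcription factors of the arm diverged. CEBPG fell in both sets, by 0.44 and 0.45 on the log2 scale (adjusted p = 2.3e-05 and 0.000302), to 51.4, 46.2 and 46.6 CPM with the p300/CBP compound and 49.8, 55.8 and 51.0 CPM with the PCAF/GCN5 compound. ATF4 went from 177, 155 and 169.7 CPM to 209.8, 204 and 198 CPM with the p300/CBP compound (0.27 ± 0.05, adjusted p = 0.000631), which brought it to the level of the induced DMSO libraries. CEBPB, another C/EBP factor, went from 29.4, 28.8 and 28.6 CPM to 37.5, 35.5 and 35.9 CPM there (0.31 ± 0.07, adjusted p = 0.00136). PPP1R15A (GADD34, which guides the dephosphorylation of eIF2) went from 57.0, 65.8 and 61.6 CPM to 80.5, 75.2 and 70.5 CPM (0.28 ± 0.07, adjusted p = 0.0027). These 3 did not pass with the PCAF/GCN5 compound, with log2 fold changes of -0.05 for ATF4, 0.12 for CEBPB and 0.16 for PPP1R15A.

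Among carriers and enzymes, SLC1A5 fell in both sets, by 0.21 with the p300/CBP compound (adjusted p = 0.0375) and by 0.46 with the PCAF/GCN5 compound (adjusted p = 0.00218). In the first set its groups overlapped, since the third non-induced library was at 100 CPM and the first induced one at 106 CPM. SHMT2 fell in both as well, by 0.17 and 0.22, to 87.8, 95.6 and 96.6 CPM and to 99.2, 98.6 and 93.3 CPM. STC2, a secreted glycoprotein, fell by 0.49 ± 0.17 and by 0.69 ± 0.15, to 7.64, 5.28 and 6.99 CPM and to 7.95, 6.45 and 7.03 CPM. With the p300/CBP compound its groups overlapped, since the third non-induced library was at 6.64 CPM. With the p300/CBP compound, PSPH, the last enzyme of serine synthesis, went from 31.7, 29.7 and 32.5 CPM to 26.5, 25.1 and 26.8 CPM, with no overlap (-0.27 ± 0.07, edgeR adjusted p = 0.00641). There PHGDH, the first enzyme of that path, rose from 97.6, 90.8 and 79.7 CPM to 106, 104 and 99.7 CPM (0.19 ± 0.07), with no overlap. SLC3A2 went from 131, 130.4 and 115 CPM to 147, 149 and 139 CPM (0.19 ± 0.06). With the p300/CBP compound 7 of 11 other settings ended the call of PHGDH, 6 each those of SHMT2 and STC2, 5 that of SLC1A5 and 3 that of SLC3A2, and with the PCAF/GCN5 compound 4 ended that of SHMT2.

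In the ER chaperone arm DNAJB9 (ERdj4, a cochaperone of HSPA5) rose in both sets. It went from 25.2, 25.1 and 29.5 CPM to 37.3, 33.7 and 39.0 CPM with the p300/CBP compound (0.46 ± 0.08, adjusted p = 0.000176) and from 23.1, 20.6 and 22.3 CPM to 28.4, 29.2 and 29 CPM with the PCAF/GCN5 compound (0.36 ± 0.09, adjusted p = 0.00689). No libraries overlapped. The sensors also passed (adjusted p = 0.0112 and 0.0484 for ERN1, 0.00663 and 0.0317 for ATF6). ERN1 went from 17.2, 17.1 and 22.4 CPM to 23.7, 22.8 and 25.2 CPM (0.33) and from 20.4, 19 and 17.2 CPM to 22.1, 22.9 and 25.6 CPM (0.28). ATF6 went from 98.6, 98.0 and 107 CPM to 117, 119 and 114 CPM (0.19) and from 78.1, 94.6 and 87.8 CPM to 106, 108 and 105 CPM (0.25). HSPA5 rose by 0.13 and HSP90B1 fell by 0.14 with the p300/CBP compound, HSPA5 from 589.6, 640.1 and 632 CPM to 679, 690.4 and 685 CPM. With the PCAF/GCN5 compound, EDEM1 and the ligase adaptor SEL1L, both of ER-associated degradation, rose. EDEM1 went from 18.5, 17.1 and 15.7 CPM to 22.4, 23.1 and 26.8 CPM (0.45 ± 0.10), and SEL1L from 128, 115 and 120.0 CPM to 136, 146 and 149.6 CPM (0.22 ± 0.07). The cochaperone DNAJC3 went from 42.5, 45.5 and 42.7 CPM to 47.7, 55.4 and 54.8 CPM (0.23 ± 0.08). Several of these smaller calls depended on the setting. Of 11 others, 5 each ended HSPA5 and HSP90B1 and 2 each ended ERN1 and ATF6 with the p300/CBP compound (adjusted p up to 0.305). For the PCAF/GCN5 compound 8 each ended ERN1 and DNAJC3, 6 ended ATF6 and 4 ended SEL1L (up to 0.191), while 0 ended EDEM1 or DNAJB9. SDF2L1 went the other way there, from 31.3, 27.9 and 25.3 CPM to 20.8, 14.7 and 17.9 CPM (-0.69 ± 0.12, adjusted p = 0.000695), with no overlap.

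**Figure D3:**
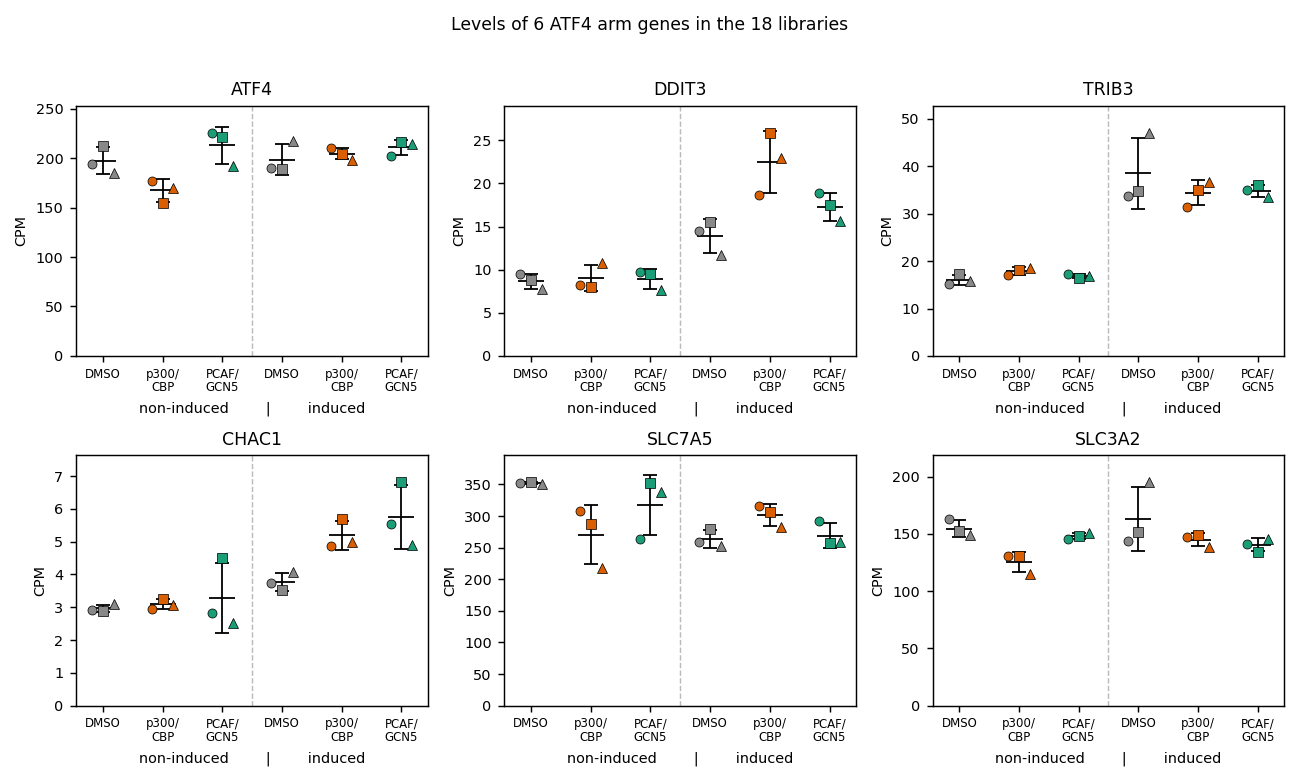
CPM (vertical axes, from 0) of 6 ATF4 arm genes in the 18 libraries, by group, with circles, squares and triangles for replicates 1, 2 and 3 and bars for the mean and SD of 3. DDIT3 and TRIB3 are higher in every induced library than in every non-induced one, and SLC7A5 is near 352 CPM in the 3 non-induced DMSO libraries (grey, left) and at 217 to 307 CPM in the 3 with the p300/CBP compound (orange, left).

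In induced cells the p300/CBP compound was compared with DMSO, which also takes in any effect of the compound that needs no induction. DDIT3 and DNAJB9 rose and 0 of the 37 genes fell, a share of 5.41%. Over all genes 5.98% were called, 2.94% as higher and 3.04% as lower. DNAJB9 rose with this compound in non-induced cells too (0.27), and neither gene passed the interaction given below. DDIT3 stood at 18.7, 25.9 and 22.9 CPM against 14.5, 15.5 and 11.7 CPM with DMSO (0.69 ± 0.14, edgeR adjusted p = 0.0253). DNAJB9 stood at 37.3, 33.7 and 39.0 CPM against 28.2, 26.3 and 24.1 CPM (0.48 ± 0.09, adjusted p = 0.0169). In both genes every compound library lay above every DMSO library. The call of DDIT3 ended without the second p300/CBP library, the third p300/CBP library or the first DMSO library (adjusted p = 0.133, 0.128 and 0.0658), and that of DNAJB9 without any single p300/CBP library (0.0502 to 0.118). Beside DDIT3, TRIB3 was at -0.17 and CHAC1 at 0.45, neither of which passed. Of the 37 genes, 15 had an unadjusted p below 0.05, beside 3490 of all 15019 genes tested. DESeq2 called 5 of the 37, beside 1273 over all genes.

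In the ER chaperone arm the result changed with the third DMSO library. HSP90B1 stood at 644, 653 and 649.9 CPM with the compound and 772, 782 and 982 CPM with DMSO, so that no libraries overlapped, but the log2 fold change of -0.39 did not pass (edgeR, adjusted p = 0.0581). The ER chaperone arm had a median of -0.07 and the ATF4 arm of -0.01, against -0.00 over all genes. Without the third DMSO library the fit called 16 of the 37 genes, 6 higher and 1 lower in the ATF4 arm and 4 higher and 5 lower in the ER chaperone arm. In that fit HSP90B1 (-0.26, adjusted p = 2.53e-07), SDF2L1 (-0.29), PDIA6 (-0.18), CALR (-0.11) and PDIA4 (-0.11) fell, while DNAJB9 (0.43), ATF6 (0.19), SEL1L (0.17) and DNAJC3 (0.17) rose. In the ATF4 arm DDIT3 (0.59), CHAC1 (0.51), SLC7A5 (0.17), PHGDH (0.16), PSAT1 (0.15) and ATF4 (0.11) rose and SLC1A5 (-0.14) fell. The share of all genes called was larger too, at 21.2% against 5.98%. In the authors' deposited table of this comparison 14 of the 37 genes had an adjusted p below 0.05, 5 higher and 9 lower, against 19.7% of all genes with a deposited adjusted p.

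The 6 genes with an ERSE match had values below 0 here, at -0.60 to -0.14 with a median of -0.22, while the other 11 ER chaperone arm genes ran from -0.58 to 0.48 with a median of 0.10. None of the 6 passed edgeR's test, and this split of the arm was not itself tested. Without the third DMSO library the 6 genes ran from -0.26 to 0.03, with a median of -0.14, and 3 passed as lower (HSP90B1, PDIA6 and CALR), while the other 11 genes had a median of 0.08. The third DMSO library was the highest of all 18 libraries for all 6. On induction in DMSO, medians of the 6 and the other 11 were 0.16 and 0.17, and 0.04 and 0.21 without the third induced library. They were -0.01 and 0.14 on induction with the p300/CBP compound, and -0.12 and 0.22 with the PCAF/GCN5 compound. In non-induced cells they were -0.05 and 0.20 for the p300/CBP compound against DMSO, and 0.06 and 0.04 for the PCAF/GCN5 compound.

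The PCAF/GCN5 compound in induced cells brought none of the 37 genes past the threshold against DMSO, by edgeR or by DESeq2. Over all genes edgeR called 0.345%. An unadjusted p below 0.05 was found in 6 of the 37 and in 1530 of all 15078 genes tested. Medians were -0.02 in the ATF4 arm, -0.13 in the ER chaperone arm and -0.01 over all genes. The genes furthest from 0 were SDF2L1, at 20.8, 14.7 and 17.9 CPM against 24.6, 22.9 and 38.8 CPM (-0.73, 95% interval -1.20 to -0.26, adjusted p = 0.38), and CHAC1, at 5.55, 6.81 and 4.89 CPM against 3.74, 3.52 and 4.07 CPM (0.56, interval 0.17 to 0.96, adjusted p = 0.442). In both, the groups did not overlap. The 6 genes with an ERSE match ran from -0.52 to -0.16 with all libraries and from -0.15 to -0.02 without the third DMSO library. The other 11 ran from -0.73 to 0.20, with a median of 0.04, so that SDF2L1, the gene furthest below 0, is one without a match. Without the third DMSO library, too, none of the 37 passed, where 0.743% of all genes were called. This comparison and the one before it share their DMSO libraries. In the authors' deposited table, 10 of the 37 had an adjusted p below 0.05, 2 higher and 8 lower, against 10.9% of all genes with a deposited adjusted p. ASNS had no adjusted p there.

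**Figure D4:**
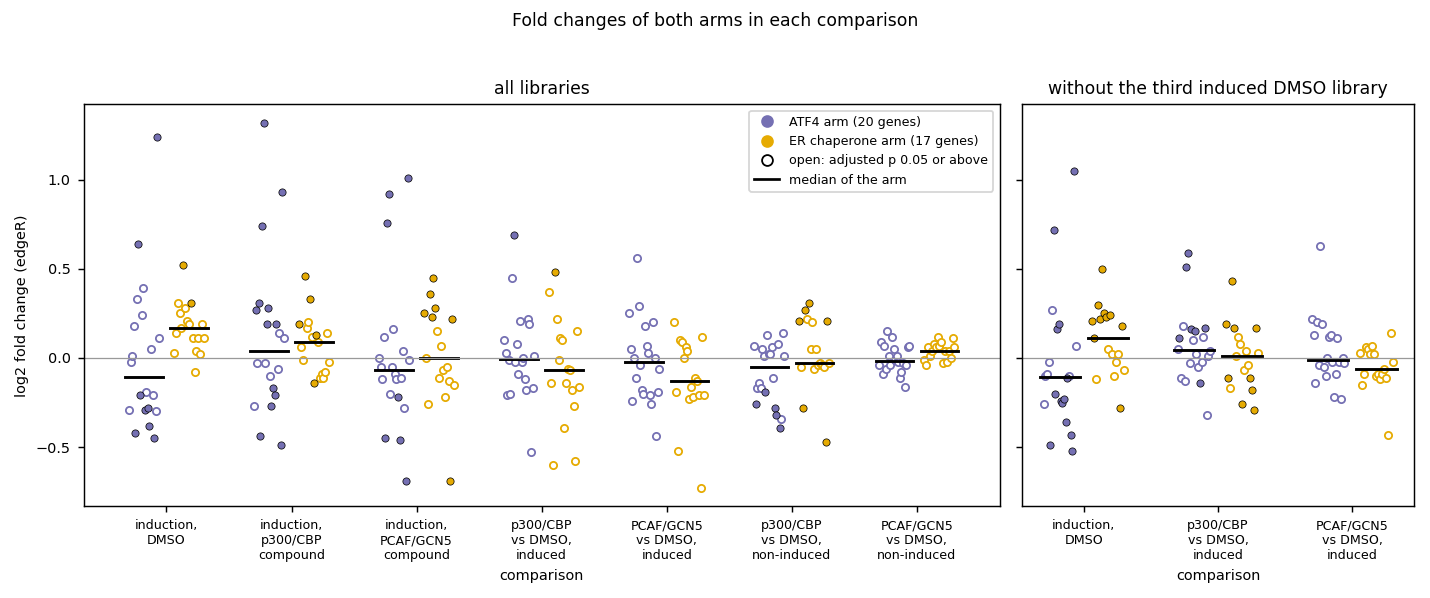
Log2 fold changes (vertical axis) of the ATF4 arm (purple) and the ER chaperone arm (yellow) in 7 comparisons, each point 1 gene, filled at an adjusted p below 0.05, with a black line at the median of the arm. The right panel repeats the 3 comparisons that use induced DMSO cells without the third of those libraries, where more points are filled for induction (23) and for the p300/CBP compound (16) and none for the PCAF/GCN5 compound.

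In non-induced cells the p300/CBP compound lowered part of the ATF4 arm. Against DMSO, 5 ATF4 arm genes fell and 0 rose of 20, and in the ER chaperone arm 4 rose and 2 fell of 17, where 9.89% of all genes were called, 3.43% as higher and 6.46% as lower. Medians were -0.05 and -0.03, against 0.00 over all genes. This comparison does not use the induced DMSO libraries.

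ATF4 stood at 177, 155 and 169.7 CPM with the compound and 194, 212 and 185 CPM with DMSO, with no overlap (-0.26 ± 0.06, edgeR adjusted p = 0.00914). Both chains of the LAT1 transporter were lower. SLC7A5 stood at 307, 287 and 217 CPM against 352, 353 and 350.3 CPM (-0.39 ± 0.09, adjusted p = 0.00947). SLC3A2 stood at 131, 130.4 and 115 CPM against 163, 152 and 149 CPM (-0.32 ± 0.06, adjusted p = 0.00248), a call that none of 11 other settings ended. In each of these genes all compound libraries lay below all DMSO libraries, and for SLC7A5 the third compound library was the lowest of all 18. SLC1A5, at 125, 119 and 100 against 135, 139 and 141 CPM (-0.28 ± 0.07), and MTHFD2, at 182, 180.5 and 183 against 202, 209.8 and 201 CPM (-0.19 ± 0.05), fell as well. DDIT3 and TRIB3 did not pass, with values of 0.01 and 0.14. The call of ATF4 ended without the second compound library or the second DMSO library (adjusted p up to 0.107). Leaving out any 1 of the DMSO libraries ended the calls of SLC7A5, SLC1A5 and MTHFD2, and of EDEM1, DNAJB9, SEL1L, ATF6 and CRELD2 in the paragraph that follows.

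In the ER chaperone arm SDF2L1 stood at 22.2, 19.7 and 19.3 CPM against 30.7, 27.2 and 25.2 CPM (-0.47 ± 0.09, edgeR adjusted p = 0.00261) and CRELD2 at 22.2, 21.5 and 19.4 CPM against 25, 26.1 and 24.5 CPM (-0.28 ± 0.08, adjusted p = 0.0403). The 4 genes that rose were EDEM1, by 0.31 ± 0.10, DNAJB9 by 0.27 ± 0.08, SEL1L by 0.21 ± 0.06 and ATF6 by 0.21 ± 0.05, while the sensor ERN1 was at 0.05 and HERPUD1 did not pass (adjusted p = 0.0566). ATF6 stood at 98.6, 98.0 and 107 CPM against 84.1, 87.5 and 88.6 CPM. DNAJB9 stood at 25.2, 25.1 and 29.5 CPM against 21.6, 21.6 and 21.9 CPM. EDEM1 stood at 19.4, 18.1 and 23.3 CPM against 15.8, 16.8 and 15.1 CPM, and SEL1L at 119, 128 and 145 CPM against 111, 113 and 108 CPM. No groups overlapped in these 6 genes, which were named because they passed the test on the same values. The main chaperones HSPA5, HSP90B1 and CALR did not pass. In the authors' deposited table of this comparison 13 of the 37 had an adjusted p below 0.05, 5 higher and 8 lower, against 12.9% of all genes with a deposited adjusted p.

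The PCAF/GCN5 compound in non-induced cells called none of the 37 genes by edgeR or DESeq2, where edgeR called 0.0199% of all genes. An unadjusted p below 0.05 was found in 1 of the 37 (PHGDH) and in 959 of all 15100 genes tested. Log2 fold changes ran from -0.16 to 0.15 in the ATF4 arm and from -0.04 to 0.12 in the ER chaperone arm. DDIT3 was at 0.01, with an interval of -0.26 to 0.28, and ATF4 at 0.09, with an interval of -0.04 to 0.23. In the authors' deposited table, 0 of the 37 had an adjusted p below 0.05, against 0.251% of the 4388 genes with a deposited adjusted p. Many of the 37 had no adjusted p there, among them DDIT3, TRIB3, CHAC1, XBP1, SDF2L1, DNAJB9 and ERN1.

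Set directly against each other, the compounds differed in 2 of the 37 genes in induced cells and in 2 in non-induced cells, with 4.12% (1.87% higher, 2.25% lower) and 1.09% (0.159% higher, 0.932% lower) of all genes called. Both comparisons cover the same 24 h, and doses are not given. In induced cells DNAJB9 was higher with the p300/CBP compound, at 37.3, 33.7 and 39.0 against 28.4, 29.2 and 29 CPM (0.36 ± 0.07, edgeR adjusted p = 0.00928). PHGDH was higher too, at 106, 104 and 99.7 against 90.5, 89.5 and 83.3 CPM (0.25 ± 0.06, adjusted p = 0.0193). DDIT3 did not pass, at 0.39 with an interval of 0.15 to 0.63, and TRIB3 was at 0.00 with an interval of -0.16 to 0.16. In non-induced cells ATF4 was lower with the p300/CBP compound, at 177, 155 and 169.7 against 226, 221 and 192 CPM (-0.35 ± 0.07, adjusted p = 0.0332). SDF2L1 was also lower, at 22.2, 19.7 and 19.3 against 31.3, 27.9 and 25.3 CPM (-0.46 ± 0.10, adjusted p = 0.0358). Each of these 4 calls was lost when at least 1 of the libraries was left out. Over the 37 genes compared, 7 in induced and 10 in non-induced cells had an unadjusted p below 0.05. Over all genes tested these were 2453 of 14983 and 2254 of 15131. The 6 genes with an ERSE match had medians of -0.03 in induced and -0.08 in non-induced cells. Medians of the other 11 ER chaperone arm genes were 0.05 and 0.09.

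Whether a compound's effect differed between induced and non-induced cells was tested as an interaction. For the p300/CBP compound edgeR called none of the 37 genes, where it called 1.28% of all genes. DESeq2 called 1 of the 37, beside 280 over all genes. An unadjusted p below 0.05 was found in 8 of the 37 and in 1634 of all 15618 genes tested. SLC7A5 came nearest (0.59, interval 0.29 to 0.90, adjusted p = 0.058), followed by DDIT3 (0.69, interval 0.26 to 1.11, adjusted p = 0.148). SLC7A5 was the gene DESeq2 called. SLC7A5 was lower with the compound in non-induced cells, while in induced cells it stood at 317, 306 and 283 CPM with the compound and 259, 279 and 252 CPM with DMSO. Without the third induced DMSO library, where 2.73% of all genes were called, 3 ATF4 arm genes passed: SLC7A5 (0.56, adjusted p = 0.00522), ATF4 (0.37, adjusted p = 0.00453) and SLC3A2 (0.30, adjusted p = 0.0427). For the PCAF/GCN5 compound none passed by edgeR, with or without that library, or by DESeq2. With all libraries edgeR called 0.0696% of all genes. An unadjusted p below 0.05 was found in 5 of the 37 and in 1148 of all 15813 genes tested.

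Between them, 16 of the 20 ATF4 arm genes and 10 of the 17 ER chaperone arm genes passed in at least 1 comparison. The share of all genes that passed in at least 1 was not counted. Induction with the p300/CBP compound alone called 32.6% of all genes. The other 11 of the 37 genes passed in none of these comparisons with all libraries in the fit. They were ASNS, ATF5, SLC7A11 (the cystine carrier) and VLDLR (a lipoprotein receptor) in the ATF4 arm and XBP1, HERPUD1, PDIA4, PDIA6, CALR, HYOU1 and MANF in the ER chaperone arm. Without the third induced DMSO library HERPUD1, PDIA4, PDIA6 and CALR passed in at least 1 comparison, as given above. ASNS had few counts and wide intervals: for the PCAF/GCN5 compound in induced cells its interval ran from -0.47 to 0.97. VLDLR, in contrast, stayed between 35.4 and 43.0 CPM in all 18 libraries, and MANF, a secreted ER factor, between 37.5 and 46.8 CPM.

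Other genes of the pathway were taken from lists of related genes. On induction in DMSO, where 13.8% of all genes were called, 4 of 17 tested further ATF4-linked genes rose and 1 fell (29.4%). SESN2, a sestrin that restrains mTORC1 and a known target of both ATF4 and p53, went from 36.1, 35.9 and 35.8 CPM to 72.7, 74.5 and 76.6 CPM (1.03 ± 0.07, edgeR adjusted p = 2.99e-05). ATF3, a stress transcription factor (0.76), KLHL24 (0.70) and DDIT4, an mTORC1 inhibitor (0.43), rose as well, and PYCR1 of proline synthesis fell (-0.30). The parts of ATF4 and of p53 in these changes were not tested. Of 12 aminoacyl-tRNA synthetases, a class that ATF4 is known to raise, only SARS passed (0.38, adjusted p = 0.0336), a share of 8.33%. The stress kinases and eIF2 factors had 0 of 10 calls by edgeR and by DESeq2. An unadjusted p below 0.05 was found in 1 of the 10 and in 4308 of all 15055 genes tested. Of 25 further ER folding and degradation genes 5 rose (ERO1B, DNAJB11, OS9, EDEM3 and MBTPS1) and 0 fell, a share of 20%. Without the third induced DMSO library, where 32.5% of all genes were called, SESN2 was at 1.00, ATF3 at 0.74 and ERO1B at 0.64. That fit called 5 of the 17 as higher and 2 as lower, 7 of the 25 as higher and 3 as lower, and 1 of the 10 (EIF2S1) as lower. Of the synthetases it called SARS as higher, at 0.25, and LARS, IARS, MARS and AARS as lower, at -0.17 to -0.11.

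The p300/CBP compound raised SESN2 further in induced cells, to 118, 119.7 and 124 CPM (0.68 ± 0.06, edgeR adjusted p = 0.000507). ATF3 went from 12.6, 13.6 and 13.9 CPM to 26.1, 22.4 and 23 CPM (0.83 ± 0.10, adjusted p = 0.0021), and no libraries overlapped in either gene. SARS (0.47) and ALDH1L2 of folate metabolism (0.71) rose too, and the disulfide isomerase PDIA3 fell (-0.26). Over these lists of related genes 4 of 64 rose and 1 fell, where 5.98% of all genes were called. SESN2 and ATF3 also passed the interaction, at 0.51 ± 0.08 (adjusted p = 0.00307) and 0.81 ± 0.15 (adjusted p = 0.011), and without the third induced DMSO library at 0.53 and 0.83. With all libraries they were 2 of the 64, where the interaction called 1.28% of all genes. Without that library the compound gave 0.71 for SESN2, 0.86 for ATF3, 0.62 for ALDH1L2 and -0.23 for PDIA3 in induced cells, all called, and it called 6 of the 17 further ATF4-linked genes as higher and 2 as lower and 7 of the 25 ER folding genes as higher and 3 as lower, where 21.2% of all genes were called. SARS was then at 0.60 and passed the interaction too (0.52, adjusted p = 5.68e-06), where 2.73% of all genes were called. In non-induced cells with that compound KLHL24 (0.60) and DDIT4 (0.27) rose and PYCR1 (-0.32) and ALDH18A1 (-0.18), both of proline synthesis, fell, while none of the 12 synthetases passed. The ER folding genes EDEM3 (0.31), SEC24D (0.24), CREB3L2 (0.19) and MBTPS1 (0.17) rose there. In these non-induced cells 6 of the 64 rose and 2 fell, where 9.89% of all genes were called.

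On induction with the p300/CBP compound, where 32.6% of all genes were called (23.9% with the PCAF/GCN5 compound), 6 of the 17 further ATF4-linked genes rose, led by ATF3 (1.57) and SESN2 (1.53) and followed by ULBP1 (0.87), DDIT4 (0.48), KLHL24 (0.41) and GPT2 (0.26), and CLIC4 fell (-0.22). With the PCAF/GCN5 compound ULBP1 (1.46), SESN2 (1.30), ATF3 (1.09) and KLHL24 (0.86) rose and PYCR1 fell (-0.46). Among the synthetases SARS rose in both (0.77 and 0.48) and LARS fell in both (-0.21 and -0.33), and AARS fell with the PCAF/GCN5 compound (-0.21). EIF2AK3, which encodes the sensor kinase PERK, rose with the p300/CBP compound (0.23), and EIF2S1, the eIF2 subunit that the kinases phosphorylate, fell in both (-0.20 and -0.19). Of the 25 ER folding and degradation genes 7 rose and 3 fell with the p300/CBP compound, 40% beside the 32.6% of all genes. The risers were the oxidase ERO1B (0.90), MBTPS1 (0.29), OS9 (0.25), CREB3L2 (0.22), SYVN1 (0.20), SEC24D (0.18) and SSR1 (0.15), and WFS1 (-0.33), P4HB (-0.18) and PDIA3 (-0.15) fell. With the PCAF/GCN5 compound ERO1B (0.64), MBTPS1 (0.40), EDEM3 (0.30), CREB3L2 (0.30) and SYVN1 (0.27) rose and 0 fell, 20% beside the 23.9% of all genes.

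Of these 64 related genes, edgeR called none for the PCAF/GCN5 compound against DMSO in either state. In induced cells 10 of the 64 had an unadjusted p below 0.05, beside 1530 of all 15078 genes tested. DESeq2 called 2 of the 64 there, beside 107 over all genes. Without the third induced DMSO library edgeR called SESN2 (0.38, adjusted p = 0.0154), where 0.743% of all genes were called. In non-induced cells 3 of the 64 had an unadjusted p below 0.05, beside 959 of all 15100 genes tested, and DESeq2 called 0 of the 64. In induced cells a direct comparison of the compounds differed in 4 of the 64, where 4.12% of all genes were called. These were SESN2 (0.33), ATF3 (0.60), DDIT4 (0.30) and SARS (0.37), each higher with the p300/CBP compound. In non-induced cells KLHL24 was higher with that compound (0.59), 1 of the 64, where 1.09% of all genes were called.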

How the data were processed

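RNA was sequenced from 18 libraries. Per the labels' protocols the kit was directional, and the submitters' processing notes name StringTie and DESeq2. The aligner, build, annotation, counting and use of strand are not given in the sources used here. The authors deposited 4 tables that hold raw counts per gene, which entered the fits unchanged, and log2 fold changes with p-values adjusted by DESeq2, per the file headers. Signs in the tables of induced cells were turned to compound minus DMSO. ANK2, whose line is broken in 1 table, was left out. The members and lists were chosen with earlier results of these data known.

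Models in edgeR 4.0.16 under R 4.3.3 held only the groups compared (TMM, filterByExpr, glmQLFit, quasi-likelihood F test, 2-sided), with Benjamini-Hochberg adjustment of p-values across every gene tested. The SE is the log2 fold change divided by the square root of F, and 95% intervals use the fit's degrees of freedom. Replicate numbers did not pair samples. The fit was checked on simulated data for the p300/CBP compound in non-induced cells and for its interaction only. No outlying library was simulated, so the check does not cover that case. DESeq2 1.42.0, RLE scaling, no filter, all 6 groups in 1 fit, a replicate block and leaving out each library were tried as alternatives. Every member and related gene past an adjusted p of 0.05 in the main edgeR fits with all libraries is named. Those past it in other fits or in the authors' values are named only in part. A count of 0 allows up to 3 counts, 0.103 to 0.331 CPM, for counting error only.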

Additional observations from a re-analysis of the deposited data

How the results depend on the processing

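Of 59 calls of single genes, 21 held under every alternative, among them all 3 TRIB3 calls of induction, and 2 values changed sign with a call: without the third induced DMSO library, induction gave -0.11 for SLC3A2 (adjusted p = 0.0412, against 0.05) and -0.28 for SDF2L1 (adjusted p = 0.00492, against 0.02). Counts of genes called out of 37 moved as follows, and the cause was not tested. With all 6 groups in 1 fit, induction with the p300/CBP compound gave 9, that compound against DMSO gave 9 in induced and 3 in non-induced cells, the PCAF/GCN5 compound gave 1 in induced cells, and the compounds against each other gave 1 in each state. Over all 16019 genes tested these fits called 3713, 2214, 615, 352, 394 and 212, in the same order. DESeq2 gave 5 and 7 for the p300/CBP compound in induced and non-induced cells, 4 for the compounds against each other in induced cells and 1 for the p300/CBP interaction. Over all genes it called 1273, 1335, 649 and 280, in the same order. With no filter on low counts, the p300/CBP compound gave 8 and the PCAF/GCN5 compound 2 in induced cells, the compounds against each other gave 5 in each state, and the interactions gave 3 and 2. Over all genes these fits called 2106, 541, 892, 594, 416 and 258, in the same order. Replicate numbers did not pair samples (correlations of -0.0771 to 0.0961), and with a replicate block the compounds against each other in non-induced cells gave 0 and the p300/CBP interaction 1. Over all genes these 2 fits called 46 and 162.

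Leaving out each library in turn, induction in DMSO gave -0.11 to 0.14 for SLC3A2 and -0.28 to 0.17 for SDF2L1. It gave 4 to 23 calls for induction in DMSO, 10 to 24 with the p300/CBP compound and 8 to 13 with the PCAF/GCN5 compound. Calls over all genes moved as well, from 869 to 5001, from 3698 to 5745 and from 2622 to 3679. Against DMSO, the p300/CBP compound gave 0 to 16 in induced and 2 to 14 in non-induced cells, and the PCAF/GCN5 compound 0 in both. Over all genes the p300/CBP compound gave 263 to 3234 and 527 to 2384 calls, and the PCAF/GCN5 compound 29 to 114 and 0 to 17. The compounds against each other gave 0 to 4 and 0 to 2, the p300/CBP interaction 0 to 3 and the other 0. Over all genes these ran from 236 to 1098, from 1 to 310, from 123 to 432 and from 8 to 24. The lowest count for induction in DMSO (4), and for the p300/CBP compound in non-induced cells (2), came without the second non-induced DMSO library. With 3 libraries a group and no doses, small differences between the compounds could not be resolved.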
